A study of Capra hircus with 4 samples.

Results

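Among the transcripts of goat pancreatic acinar cells, 7 of the 27137 genes in the deposited feature list stand out as abundant while carrying no gene name. They are LOC102174148, LOC102176156, LOC102173875, LOC102168735, LOC102174664, LOC102188098 and LOC102183207, which are locus numbers and say nothing of function. The 7 genes were selected on their summed unique molecular identifier (UMI) counts in acinar cells of these same libraries, so their high level there is a description and supports nothing. All 7 had a row in the matrix and passed every filter on low counts. Each UMI marks 1 captured messenger RNA molecule at its 3' end, so levels of different genes need no correction for length.

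The acinar cell is the enzyme factory of the exocrine pancreas. It makes digestive enzymes, many of them as inactive precursors, packs them into zymogen granules and releases them into the ducts when a meal arrives. A goat kid first digests milk in a single functional stomach, and later digests feed that microbes have already fermented in the rumen, so its pancreas meets different substrates at these ages.

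The study sampled pancreas from twin female Liuyang black goats, 2 of them 10 days old and not yet ruminating and 2 of them 6 months old and ruminating, with no treatment or genetic change. Tissue was dissociated with collagenase IV, dispase and DNase I, depleted of red and dead cells and captured with 10x Genomics 3' version 3 chemistry, aiming at 8000 cells a sample. The matrix joins 4 libraries whose barcodes end in 1 to 4, and the labels do not say which goat or age a barcode ending belongs to. Libraries are therefore given by number, with each value or the median and range, no mean and no test.

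The libraries held between 43297855 and 82817057 UMIs, and cell calling left 13216 cells. Acinar-like cells numbered 366, 1243, 811 and 63 in libraries 1 to 4, with median depths of 7581, 19509, 17323 and 12699 UMIs. The class name came from acinar markers other than the 7 genes, 15 of which were matched, and each acinar-like cluster had between 7 and 13 of them raised. Different clusters filled the class: cluster 3 held all acinar-like cells of library 1 and 56 of the 63 in library 4, cluster 21 held 952 of the 1243 in library 2, and cluster 27 held 509 of the 811 in library 3. Among all cells, 17 barcodes were shared between libraries over all pairs, and 1 of these was an acinar-like cell in both. In library 4, 391 of the 1050 endocrine-like cells lay in a cluster that also carried CXCR1, a neutrophil receptor.

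Over the acinar-like cells of all libraries, LOC102176156 held the first rank of all genes by summed UMIs with 21.4%, and LOC102168735 the next with 10.2%. Library 2 weighs most in these ranks, with 30161186 acinar-like UMIs against 3957131, 17218528 and 1044811 in libraries 1, 3 and 4. LOC102188098, LOC102183207, LOC102174148 and LOC102173875 ranked 6 to 9, and LOC102174664 ranked 12 with 0.630%. The named genes SYCN, PRSS2, CLPS, CEL and CTRC lay between them. The 7 genes together took 37.1%, 42.8%, 36.8% and 33.2% of the UMIs of acinar-like cells in libraries 1 to 4, a median of 36.9%. Counting error was small beside the spread between libraries: the exact 95% binomial interval was 37.0% to 37.1% in library 1 and 33.1% to 33.3% in library 4. Intervals here cover counting error only.

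That total was made up of different genes in different libraries. For LOC102174148 the share of acinar-like UMIs was 16.1%, 0.00508%, 0.0258% and 9.64% in the order of the library numbers. It was the most abundant gene of all in libraries 1 and 4, and ranked 859 in library 2 and 220 in library 3. LOC102176156 took 0.0370%, 28.2%, 15.6% and 4.55% in the same order. It was the most abundant gene in libraries 2 and 3 and ranked 113 in library 1 and 5 in library 4. In library 4 most of its UMIs lay in 6 cells of cluster 21, and it took 0.0406% in the 56 cells of cluster 3.

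LOC102173875 was measured at 5.22%, 0.526%, 1.69% and 3.78%, highest in library 1 and lowest in library 2. LOC102168735 was measured at 1.47%, 9.96%, 13.1% and 3.23%, ranking directly after LOC102176156 in libraries 2 and 3. LOC102174664 was measured at 5.31%, 0.136%, 0.119% and 5.59%. It ranked 4 in both libraries 1 and 4, and 75 and 89 in libraries 2 and 3.

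The remaining genes varied least. LOC102188098 took 4.84%, 2.10%, 2.89% and 3.58%, and LOC102183207 took 4.09%, 1.91%, 3.34% and 2.83%. Both lay among the 11 most abundant genes of every library. Between 4 and 6 of the 7 genes were among the 10 most abundant in each library. The highest count was that of library 4 and included LOC102176156, whose UMIs there lay mostly in 6 cells of cluster 21.

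**Figure D1:**
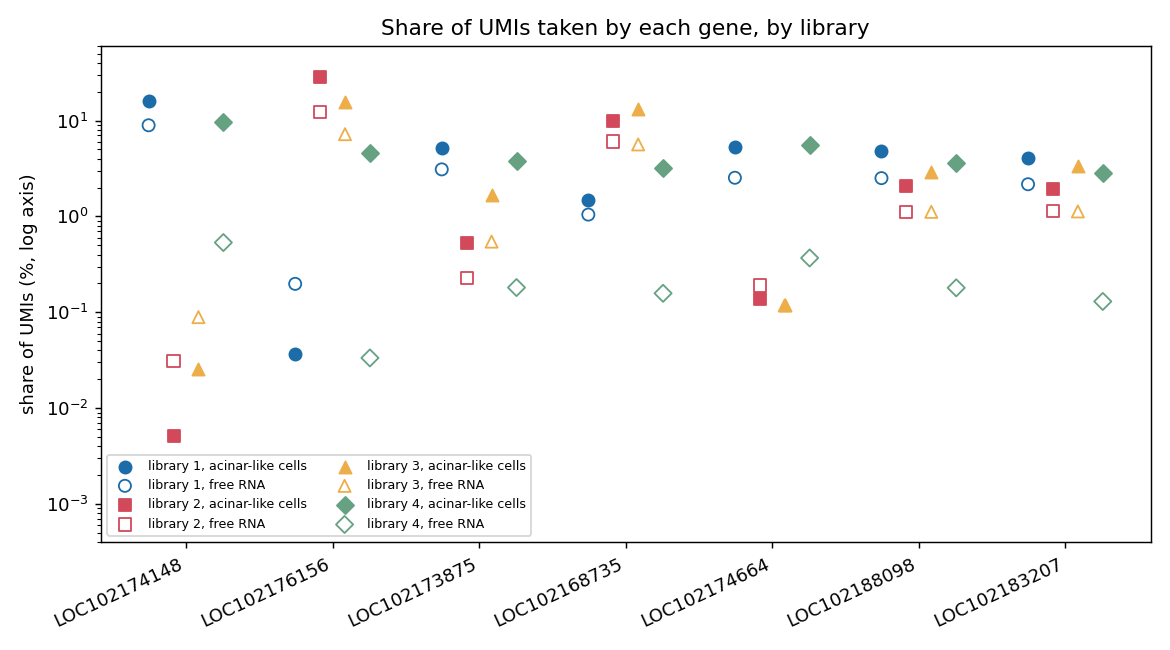
Share of UMIs (percent, log axis) taken by each of the 7 genes, with filled symbols for the summed acinar-like cells and open symbols for free RNA (barcodes with 10 to 100 UMIs), 1 symbol shape for each of the 4 libraries. LOC102174148 and LOC102176156 swap between 16.1% and 0.0370% in library 1 and between 0.00508% and 28.2% in library 2, while LOC102188098 and LOC102183207 stay between 1.91% and 4.84%.

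On the scale log2(CPM + 1), with CPM the counts per 1000000 UMIs of acinar-like cells, the level of LOC102174148 ranged over 11.60 between libraries and that of LOC102176156 over 9.57. The ranges were 5.55 for LOC102174664, 3.31 for LOC102173875 and 3.15 for LOC102168735. They were 1.21 for LOC102188098 and 1.10 for LOC102183207. By a range of at least 2, 5 of the 7 genes ranged widely, against 28.1% of all 12160 genes tested, and the median range was 3.31 for the 7 and 1.59 for all. The 7 were chosen on UMIs summed over these same libraries, which can favour genes very high in 1 library. Nothing is therefore read from that count. Among the 115 genes that reached 1000 CPM in a library, a limit set after seeing the data and one that the 7 genes also met, 21.7% ranged widely. Without library 2 the range of LOC102173875 was 1.63, which left 4 of the 7 wide, and without library 1 that of LOC102176156 was 2.63. The value of 2.63 counted all acinar-like cells of library 4, where LOC102176156 took 4.55%, against 0.0406% in the 56 cells of cluster 3. The summed level of all 7 genes ranged over only 0.37.

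**Figure D2:**
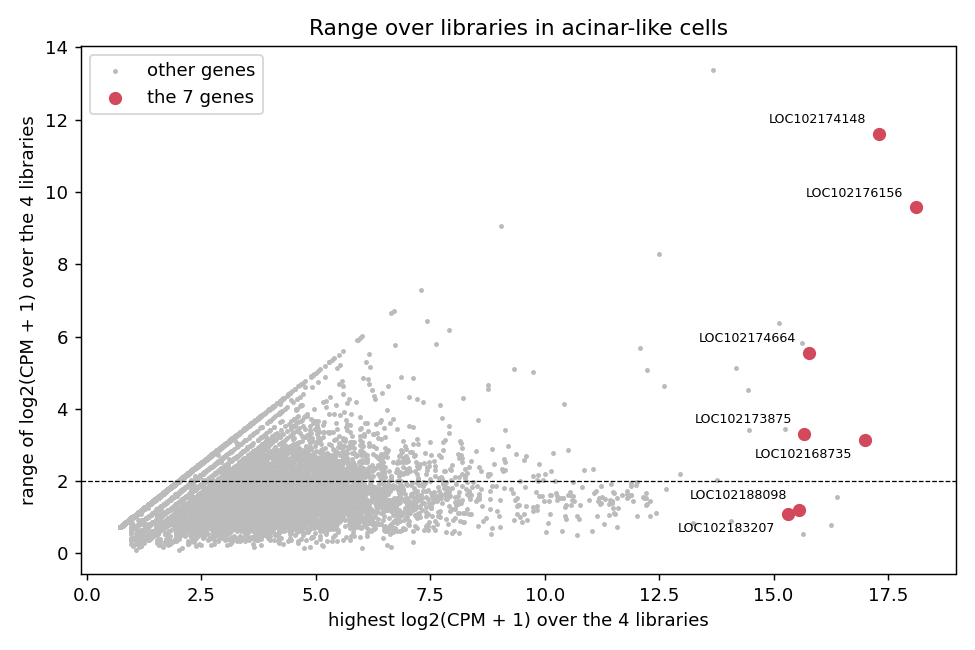
Range of log2(CPM + 1) over the 4 libraries (vertical axis) against the highest level in any library (horizontal axis) for the 12160 genes tested in acinar-like cells, with the 7 genes as large points and the dashed line at a range of 2. The 7 genes lie at the right edge because they were chosen for level, with LOC102174148 at 11.60 and LOC102183207 at 1.10.

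In RefSeq's list of goat genes (assembly ARS1.2) each of the 7 matched 1 protein-coding gene, and 3 of them are neighbours. LOC102173875, LOC102174148 and LOC102176156 follow each other between ZFP1 and BCAR1 with no other gene between them. The genes at either side were low in acinar-like cells, with at most 3.66 CPM for ZFP1 and 9.41 CPM for BCAR1 in any library. LOC102183207 lies between CEP41 and CPA5, a carboxypeptidase gene that reached at most 2.497 CPM. LOC102174664 lies next to EDDM3B and LOC102175026, both without an acinar UMI in any library. LOC102188098 lies between LOC108638631 and LOC102189078, and LOC102168735 between LOC108637087 and LOC102169017. Their proteins and promoters were not analysed here.

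Summed over the neighbouring trio, the share of acinar-like UMIs was 21.4%, 28.7%, 17.3% and 17.97% by library, a log2 range of 0.73. Its make-up differed far more than its total. LOC102174148 supplied 75.4%, 0.0177%, 0.149% and 53.6% of the trio's UMIs. LOC102176156 supplied 0.173%, 98.2%, 90.1% and 25.3%. LOC102173875 supplied 24.4%, 1.83%, 9.76% and 21.0%. In all other cells LOC102174148 supplied 75.0%, 0.0213%, 0.107% and 67.9% of the trio's UMIs, and LOC102176156 supplied 0.226%, 98.4%, 90.9% and 8.68%. Acinar-like and other cells differed most in library 4, where 6 cells of cluster 21 held 47232 of the 47588 acinar-like UMIs of LOC102176156. The 56 cells of cluster 3 in that library held 100531 UMIs of LOC102174148, 356 of LOC102176156 and 38425 of LOC102173875.

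Single acinar-like cells carried either LOC102174148 or LOC102176156 as the far larger of this pair, with no graded mixture. The share of LOC102174148 in the sum of the pair was computed in every acinar-like cell. It lay over 50% in all 366 cells of library 1, in none of the 1243 and 811 cells of libraries 2 and 3, and in 57 of the 63 cells of library 4. Of the 2483 acinar-like cells, 0 lay between 10% and 90%, which allows up to 0.820%, 0.241%, 0.370% and 4.76% of cells by library (a limit of 3 counts). In library 1 the lowest value was 94.2%, and in libraries 2 and 3 the highest values were 0.583% and 8.54%. At least 10 UMIs of each gene were found together in 30, 22, 108 and 14 cells, always with 1 gene far ahead.

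**Figure D3:**
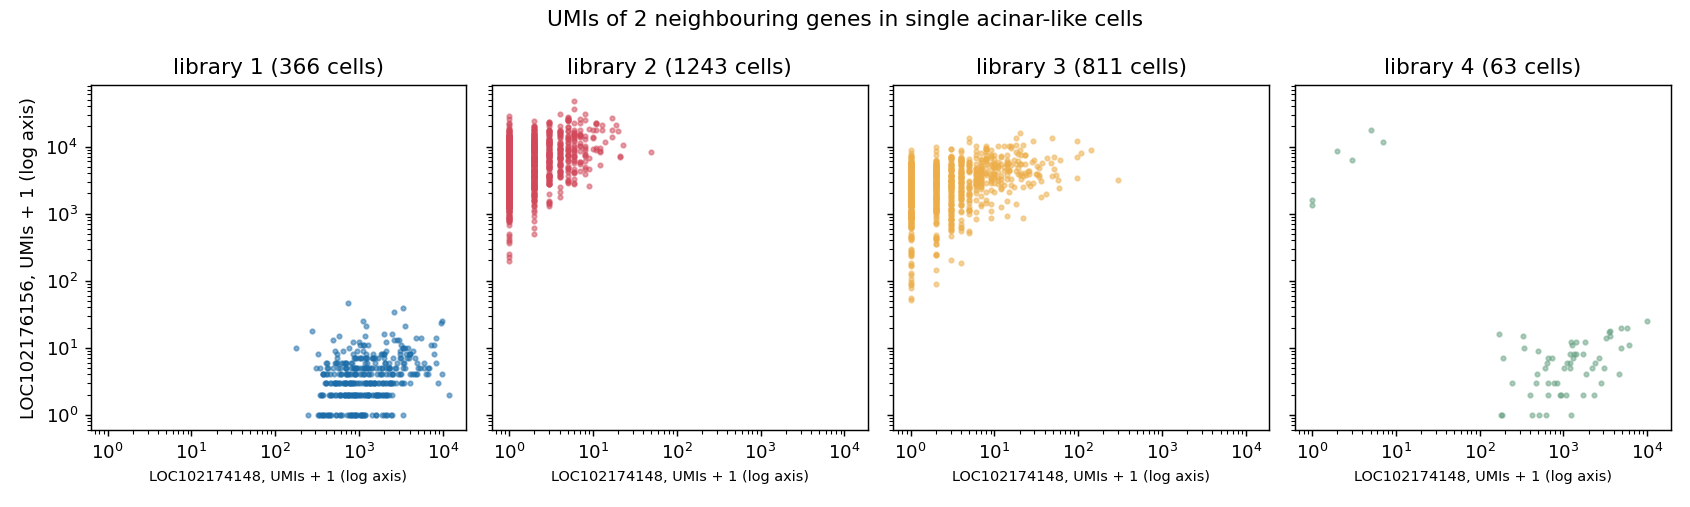
UMIs + 1 of LOC102174148 (horizontal log axis) and LOC102176156 (vertical log axis), 1 point for each acinar-like cell and 1 panel for each library. The 366 cells of library 1 lie at the lower right, the cells of libraries 2 and 3 at the upper left, and library 4 holds 57 cells at the lower right and 6 at the upper left.

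The 6 exceptional cells of library 4 made up the whole of cluster 21 in that library. In them LOC102176156 took 29.1% of UMIs, from 21.3% to 36.3% in single cells, and LOC102174148 took 0.00800%. In the 56 cells of cluster 3 the same genes took 0.0406% and 11.5%. The 6 cells held 4331 to 51424 UMIs each. A single further cell in cluster 25 had 181 UMIs of LOC102174148 and 0 of LOC102176156. None of the 7 barcodes outside cluster 3 reached 500 UMIs in another library. Where these cells came from was not tested. With cluster 3 alone, the 7 genes took 31.4% of the UMIs in library 4, LOC102176156 took 0.0406% in place of 4.55%, and LOC102168735 took 2.13% in place of 3.23%.

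LOC102174148 was the most abundant of the 7 genes in 97.3% of acinar-like cells of library 1 (356 of 366; exact 95% interval 95.03% to 98.7%). LOC102176156 led in 99.5% of cells of library 2 (1237 of 1243; 98.95% to 99.8%). In library 3 LOC102176156 led in 71.1% (577 of 811; 67.9% to 74.2%) and LOC102168735 in 27.7% (225 of 811; 24.7% to 31.0%). In library 4 LOC102174148 led in 61.9% (39 of 63; 48.8% to 73.9%), LOC102174664 in 27.0% (17 of 63) and LOC102176156 in 9.52% (6 of 63). LOC102173875 and LOC102183207 led in 0 cells of every library. By a limit of 3 counts that allows up to 0.820%, 0.241%, 0.370% and 4.76% of cells in libraries 1 to 4.

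The share of a gene in single acinar-like cells varied to different degrees. Between the 10th and 90th percentile of cells, LOC102174148 ran from 10.0% to 19.3% in library 1 and LOC102176156 from 20.1% to 35.6% in library 2. LOC102188098 ran from 3.73% to 6.39% in library 1. LOC102168735 ran from 0.339% to 3.18% in library 1, and LOC102173875 from 0.111% to 0.914% in library 2 and from 0.764% to 6.84% in library 4. LOC102174664 was uneven in libraries 2 and 3, where it was scarce. For LOC102174664 the median cell share was 0.0391% in library 2 and 0.0359% in library 3, and its 90th percentiles were 0.571% and 0.473%. The 10% of cells with the highest share held 49.8% of its UMIs in library 2 and 49.5% in library 3. For LOC102174148, also scarce there, the corresponding cells held 47.0% and 55.9%. The median cell of these libraries had 0 and 2 UMIs of LOC102174148, against 9 and 6 of LOC102174664. At so few counts sampling alone gathers UMIs in few cells, so unevenness of LOC102174148 is not read from these values. The cells high in LOC102174664 held 4.56% and 4.17% of all acinar-like UMIs, and their median depths of 9169.5 and 7914 UMIs lay below the class medians of 19509 and 17323. In library 1, where LOC102174664 was abundant, the 10% of cells with its highest share held 19.3% of its UMIs.

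LOC102174664 also differed between clusters. In library 2 LOC102174664 took 0.623% of UMIs in cluster 25 (73 cells, median depth 8940 UMIs) and between 0.112% and 0.253% in the other 3 acinar-like clusters of at least 20 cells, a log2 range of 2.47. In library 3 it took 0.641% in cluster 25 (34 cells, median depth 8299 UMIs) and 0.0985% and 0.128% in clusters 27 and 26, a range of 2.70. Cluster 25 was led by ERP27, a chaperone of the endoplasmic reticulum, and TFF1, a secreted mucosal peptide. Ranges of at least 2 over clusters occurred in 25.2% of all genes tested in library 2 and 29.5% in library 3. No other gene of the 7 had a range over 0.77 across clusters. Depth moved with this result, and the part of depth in it was not tested.

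Acinar-like cells of each library were also split by UMI count into tertiles. In the deepest tertile the median combined share of the 7 was 39.1%, 43.5%, 37.3% and 36.6% by library, and in the shallowest it was 32.7%, 40.8%, 34.3% and 29.5%. LOC102173875 had a higher median share in the deepest tertile of all 4 libraries, by 1.70, 1.68, 1.79 and 1.69 times. Computed from summed UMIs its log2 ratios were 0.79, 0.75, 0.70 and 0.51, and its lowest value over libraries ranked 1 among 1857 genes seen in at least 10% of acinar-like cells of every library. The median of those genes was -0.24. The ranking was made after seeing the data, and a cell's depth mixes its RNA content with how well it was captured. LOC102174664 ran the other way where it was scarce, with summed log2 ratios of 0.29, -2.68, -3.09 and -0.04.

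**Figure D4:**
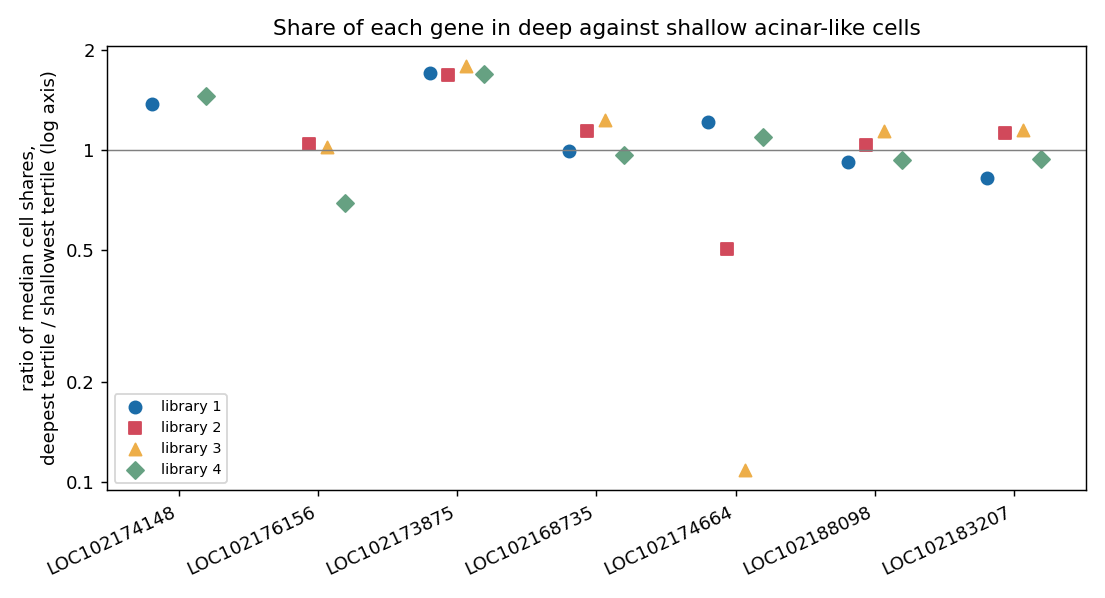
Ratio of the median cell share in the deepest tertile of acinar-like cells to that in the shallowest tertile (log axis), for each gene and library where the gene took at least 0.1% of acinar-like UMIs. LOC102173875 lies between 1.68 and 1.79 in all 4 libraries, and LOC102174664 lies at 0.50 in library 2 and 0.11 in library 3.

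Across cell classes, the log2 ratio of acinar-like cells to all other cells of the same library had medians between 4.78 for LOC102176156 and 5.24 for LOC102174148. Single libraries ran from 2.34 for LOC102174664 in library 2 to 8.93 for LOC102176156 in library 4. In library 2 LOC102174664 had 1363 CPM in acinar-like cells and 1148 CPM in ductal-like cells. All 7 reached a log2 ratio of 1 in every library, against 0.519% of the 12914 genes tested (67 genes). Since the genes were chosen for their acinar level, nothing is read from that count. For the same rule in the lower direction 52.6% of genes were called and the median log2 ratio of all genes was -1.68. LOC102188098 is an example: its level was 48430, 21007, 28852 and 35770.1 CPM in acinar-like cells of libraries 1 to 4, and 1032, 495, 325 and 106 CPM in stellate-like cells, the connective tissue cells of the pancreas.

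**Figure D5:**
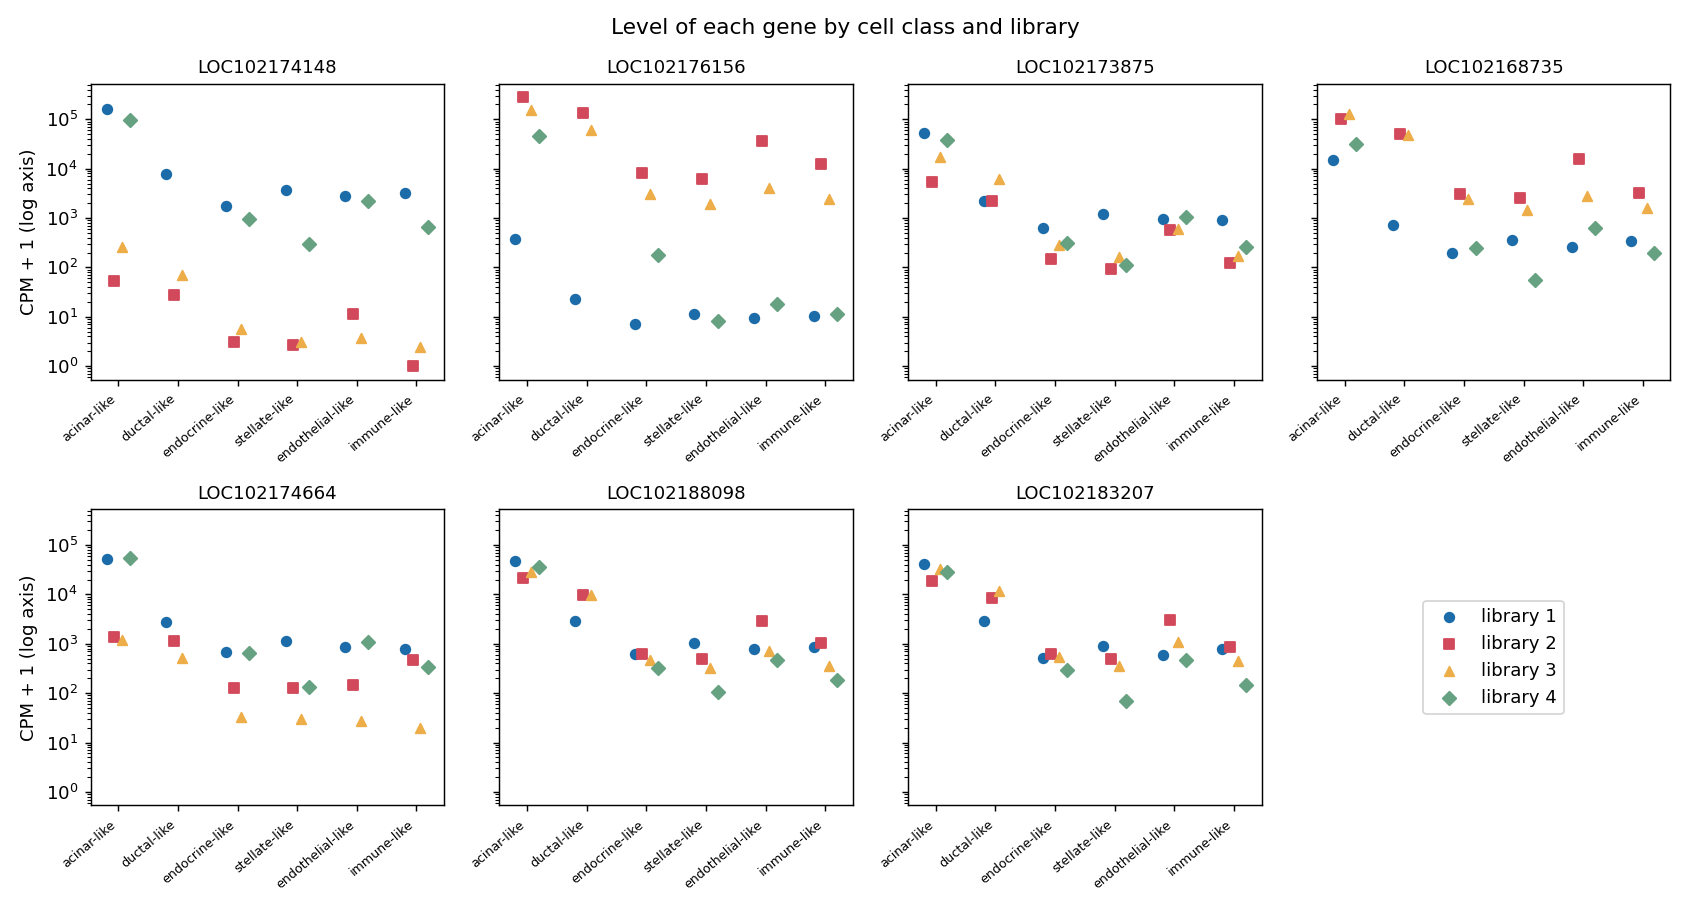
Level of each gene as CPM + 1 (log axis) in 6 cell classes, with 1 symbol for each library in which the class had at least 20 cells. Acinar-like cells are highest for all 7 genes in every library. In the classes plotted LOC102174148 is higher in libraries 1 and 4 than in libraries 2 and 3, and LOC102176156 the reverse, while the order inside these pairs differs between classes.

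UMIs of the 7 genes outside acinar-like cells lay beside a large pool of free RNA. In barcodes with 10 to 100 UMIs the 7 together took 20.5%, 21.0%, 15.8% and 1.58% of UMIs in libraries 1 to 4. Their combined share in stellate-like cells was 0.831%, 1.01%, 0.429% and 0.0771%. In endocrine-like cells, which make islet hormones, it was 0.442%, 1.30%, 0.673% and 0.298%. These are shares of summed UMIs. The median stellate-like cell had 0.249%, 0.516%, 0.374% and 0.0255%, and the median endocrine-like cell 0.113%, 0.436%, 0.366% and 0.0299%. For the typical gene of the 7 the summed share was 2.73% to 5.25% of its share in free RNA in stellate-like cells and 2.03% to 18.1% in endocrine-like cells. At a depth thinned to 2000 UMIs a cell, LOC102176156 was seen in 98.1% of endothelial-like cells (unthinned 100%, median depth 8938.5 UMIs) and 100% of immune-like cells of library 2. In library 1 it was seen in 1.48% and 2.27% of them after thinning, and in 5.19% and 3.79% before. LOC102174148 was seen in 77.8% and 79.2% of these cells of library 1 after thinning, and in 97.8% and 98.5% before. In library 2 it was seen after thinning in 0 of 106 endothelial-like and 0 of 34 immune-like cells, which allows up to 2.83% and 8.82%. In the summed UMIs of endothelial-like cells the combined share of the 7 was 0.617%, 5.85%, 0.938% and 0.593%. There the typical gene lay at 3.02%, 25.5%, 5.69% and 35.7% of its share in free RNA. The median endothelial-like cell had a combined share of only 0.237%, 0.460%, 0.411% and 0.0279%. The 90th percentile of these cells was 0.575%, 1.30%, 1.04% and 0.0750%. The part of free RNA in these values was not tested, and they are not read as expression.

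Ductal-like cells, which line the tubes that carry the juice away, carried the 7 genes unevenly. The combined share of their summed UMIs was 1.94%, 20.7%, 13.6% and 0.0239% in libraries 1 to 4, but the median cell had 0.213%, 0.7998%, 0.548% and 0.0274%. Cells with at least 10% numbered 54 of 178 in library 2 and 52 of 257 in library 3, and they held 98.2% and 97.1% of the 7 genes' UMIs in the class. Their median depths were 25075 and 20914.5 UMIs, against 7556 and 6408 UMIs for the remaining ductal-like cells. Scrublet removed only 2 doublets in library 2 and 111 in library 3, and whether these cells were doublets was not tested.

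The genes whose level ran most like each of the 7 were ranked by Pearson's r of log2(CPM + 1) over 25 sums, each of 1 class in 1 library, among 17062 genes. The sums share libraries and free RNA, so r is a description. LOC102174148 ran closest to PNLIP, pancreatic lipase (0.96), followed by LOC102178719 (0.94) and CELA1, an elastase (0.88). LOC102176156 ran closest to PNLIPRP2, a lipase-related protein (0.92), LOC102168735 (0.91) and CYM, chymosin, the milk-clotting protease (0.89). LOC102168735 ran closest to PNLIPRP2 (0.97), ERP27 (0.95) and DMGDH, a mitochondrial enzyme (0.95).

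LOC102173875 ran closest to CTRC, chymotrypsin C, and LOC102179184 (0.98 each), followed by LOC102169350 (0.95). LOC102174664 ran closest to CELA1 (0.96), PLA2G1B, the pancreatic phospholipase (0.95), and DNASE1, a secreted nuclease (0.92). LOC102188098 and LOC102183207 ran closest to each other (0.99), followed for both by SYCN, a zymogen granule protein (0.99). The next was CLPS, colipase, for LOC102188098 (0.99) and CEL, bile salt-stimulated lipase, for LOC102183207 (0.99).

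Over single acinar-like cells, r was taken within each library on UMIs scaled to those outside the 7 genes, among 1857 genes, and the median over libraries was ranked. The closest genes were LOC102173875 for LOC102174148 (0.57), PRSS2, a trypsin, for LOC102176156 (0.59) and LOC102179184 for LOC102173875 (0.66). LOC102168735 came closest to LOC102176156 (0.42), LOC102188098 to LOC102183207 (0.50) and LOC102183207 to CEL (0.70). Some of these medians covered unlike libraries. In libraries 1 to 4 r was 0.06, 0.29, 0.73 and 0.55 for LOC102168735 with LOC102176156. It was 0.76, 0.24, 0.38 and 0.76 for LOC102174148 with LOC102173875. For LOC102174664 the closest was CLPS (0.33), with 0.58 and 0.55 in libraries 1 and 4 and 0.10 and -0.02 in libraries 2 and 3, where the gene was scarce. For LOC102176156 and PRSS2 r was 0.02, 0.76, 0.74 and 0.44 in libraries 1 to 4. LOC102176156 was scarce in library 1, and in library 4 the 6 cells of cluster 21 held 47232 of its 47588 acinar-like UMIs.

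Named genes of acinar function were read from lists beside the 7. Of 36 digestive enzymes and inhibitors, 15 were matched by symbol and 11 passed the count filter of the class comparison. All 11 were higher in acinar-like cells (0.519% of all genes tested were), with a median log2 ratio of 4.86, led by CTRC (5.29), PRSS2 (5.14), CLPS (5.05), PLA2G1B (5.01) and CEL (4.96). All of the 11 but DNASE1 and SPINK1 were also markers that gave the acinar-like class its name, so nothing is read from that count. Of the 13 tested for range, 8 ranged widely over libraries (28.1% of all genes did), with a median of 3.44. Among these, PNLIP had 13072, 0.232, 1.45 and 10967.5 CPM by library. CYM ran opposite, with 0, 366, 531 and 3.83 CPM. PRSS2, which did not range widely, varied least of the 13 tested, with 43224, 50856, 41712 and 35100.1 CPM.

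The shares of all genes to set beside the further lists are 0.519% higher, 52.6% lower and 28.1% wide-ranging. Of 9 zymogen granule genes and secretagogue receptors that passed the count filter, 5 were higher (SYCN, ZG16, AQP8, PDIA2 and GP2, between 4.96 and 5.05) and 2 were lower, and 4 of 12 ranged widely. Of 8 acinar transcription factors that passed, 4 were higher, namely RBPJL (4.39), PTF1A (3.62), BHLHA15 (3.53) and GATA4 (2.36), and 1 of 9 ranged widely. SYCN, ZG16, GP2, RBPJL, PTF1A and BHLHA15 were also markers that named the acinar-like class, so nothing is read from their calls. AQP8, PDIA2 and GATA4 were not markers. Of 23 genes of endoplasmic reticulum folding and stress that passed, 0 were higher, 3 were lower and 12 ranged widely. Their median log2 ratio was -0.70, above the -1.68 of all genes tested. Of 11 matched genes of the dissociation response, 0 were higher, 0 lower, and 5 ranged widely, with a median log2 ratio of -1.64.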

How the data were processed

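The authors deposited 1 unfiltered matrix of UMI counts, whole numbers per gene and barcode, and its header names Cell Ranger 5.0.1. Per the submitters' processing notes the tools included Seurat 3.1.1 and an earlier Cell Ranger (3.1.0), and the genome build is not given in the sources used here. Cells were barcodes above 1/10 of the 99th percentile of the top 8000 barcodes of a library, with at least 500 genes. Doublets were removed with Scrublet (scanpy 1.11.5), which marked only 2 of 3326 barcodes in library 2 and 4 of 3087 in library 4 and so did not work there. Cells were clustered (Leiden, resolution 1, igraph 0.11.9) without the 7 genes and the list genes. A class name needed 3 or more markers at 2 times the mean of other clusters, each seen in 10% of cells, thresholds set after seeing the data. Rebuilt names can differ from the study's own.

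UMIs were summed per class and library and written as CPM. A gene was called higher or lower when log2(CPM + 1) differed by at least 1 in every library, given 20 or more counts in the higher class, and wide-ranging when it spanned at least 2 over libraries; log ratios understate low genes. These rules were tested on simulated counts with known changes, which did not model free RNA, doublets or mixed clusters. The 7 genes, the lists and the rules were chosen with earlier results of these data known. Named genes are the 7, the 3 most like each and, per list, at most 5 called genes by absolute median log2 ratio, while other names were chosen after their values were seen. The age comparison was not run, since no label ties a library to an age.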

Additional observations from a re-analysis of the deposited data

How the results depend on the processing

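All 7 genes were called higher under every alternative run for that call (not thinning), and 5 wide-ranging under every one run for the range (neither thinning nor centring), save that leaving out library 2 left 4. Thinning was run only for the leading gene per cell and the shares of cells with a UMI. The alternatives were a minimum of 1000 UMIs, removal of the top 5% of doublet scores, resolution 2, the 7 genes and list genes kept in the clustering, each library left out, free RNA subtracted at 10%, a denominator outside the 7 genes, a pseudocount of 10 CPM, no count filter, centring, thinning and, added after seeing the data, library 4 with its main acinar-like cluster only. Of 441 recomputed values of single genes, 366 stayed within the counting interval of a share or 1 SD over libraries of a log2 value. The other 75 did not. Part of the 366 could not move, since leaving out a library or restricting library 4 does not alter the shares in other libraries. An allowance of 1 SD is wide where libraries differ, as for LOC102174148 with log2 ratios from 2.93 to 7.05. None of the values changed sign, but shares and ranges cannot do so. The number of wide-ranging genes among all genes was 2108 without library 1, 1986 without library 3 and 250 with the pseudocount of 10 CPM, against 3419. The number of genes higher in acinar-like cells was 103 with the denominator outside the 7 genes, 114 without the count filter and 345 after centring, against 67. Subtracting free RNA lowered LOC102176156 in library 1 from 0.0370% to 0.0187% and LOC102174148 in library 2 from 0.00508% to 0.00219%, since both lay below their share in free RNA.

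No paired analysis was possible because the library numbers carry no sample label, so the replicate block, edgeR and DESeq2 comparisons of the ages were not run. Library 4 had 63 acinar-like cells, which limits its shares of cells.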

Other observations

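In acinar-like cells LOC102174148 and LOC102174664, both among the genes named for a wide range, had values in 2 separate clusters of libraries. LOC102174148 lay at 16.1% and 9.64% in libraries 1 and 4 and at 0.00508% and 0.0258% in libraries 2 and 3. LOC102174664 lay at 5.31% and 5.59% in libraries 1 and 4 and at 0.136% and 0.119% in libraries 2 and 3. LOC102168735 was less far apart, at 1.47% and 3.23% against 9.96% and 13.1%. LOC102173875, at 5.22% and 3.78% against 0.526% and 1.69%, had no clear gap. LOC102176156 lay at 0.0370% in library 1 and 4.55% in library 4, or 0.0406% in the main acinar-like cluster of library 4, against 28.2% and 15.6%. Which libraries share an age is not known here.

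In libraries 1 to 3 free RNA held more of the scarce gene of the pair than the acinar-like cells did. LOC102176156 took 0.198% of free RNA in library 1 and 0.0370% of acinar-like UMIs. LOC102174148 took 0.0309% of free RNA in library 2 and 0.00508% of acinar-like UMIs, and 0.0890% and 0.0258% in library 3. In library 4 LOC102176156 took less of free RNA, 0.0334%, than of acinar-like UMIs, 4.55%, or 0.0406% in the main cluster alone. In library 1 LOC102176156 made up 1.62% of the trio's UMIs in free RNA, 0.173% in acinar-like cells and 0.226% in all other cells.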
